A study of Mus musculus with 8 samples.

Results

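The neighbourhood of Cdkn2a and Cdkn2b on mouse chromosome 4 was examined in ATAC-seq peak lists of NIH3T3 cells, an immortalised fibroblast line derived from mouse embryos. Its members were all listed peaks that overlap chromosome 4 from 88400000 to 89500000 on the build mm9, a window of 1.1 Mb in which the genes lie near 88.90 to 89.00 Mb. This position of the genes is approximate, and it was not read from an annotation of mm9, since none was used here. The window held 210 of the 154178 peaks in the 4 lists, and these peaks merged into 61 of 45915 regions when peaks sharing at least 1 bp were joined.

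ATAC-seq uses the Tn5 transposase to insert adapters into DNA that is not wrapped in nucleosomes, so that peaks mark accessible DNA. The cells had been kept for 24 h on G128 or on G2, with 2 libraries for each, and the labels name no other agent and no genetic change in either group. The series concerns polyvinyl alcohol and gelatin hydrogels and cell adhesion, and what G128 and G2 abbreviate is not explained there. The comparison asks whether accessibility differs between cells on G128 and cells on G2. Whether replicates were separate cultures is not stated, and p-values between groups thus reflect the spread of these libraries alone, which may be technical. RNA from 4 further libraries was not analysed here, and neither expression of the genes nor markers of the fibroblast identity were examined.

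Cdkn2b encodes p15Ink4b, an inhibitor of the cyclin D-dependent kinases Cdk4 and Cdk6. Cdkn2a encodes a related inhibitor, p16Ink4a, and, from a separate first exon and another reading frame, p19Arf, which restrains Mdm2 and so stabilises p53. In cultured mouse fibroblasts these proteins accumulate with passage and limit growth, and established lines have often lost the locus or p53. NIH3T3 cells are widely described as lacking Cdkn2a. In the RefSeq annotation of GRCm38.p6, used here only for the order of genes, the type I interferon genes precede Mtap along the chromosome, which encodes an enzyme of methionine salvage. Mtap is followed by Cdkn2a, Cdkn2b and Dmrta1, with no other protein-coding gene between Mtap and Dmrta1 than these 2 members.

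The sequences upstream of the 3 annotated starts of the genes are shown because they are the promoters of the genes in whose approximate interval no peak was listed. Each is the 250 bases before a start on the minus strand, from RefSeq on GRCm38.p6, with CpG dinucleotides in capitals. The upstream start of Cdkn2a, which opens the p19Arf transcript, has chr4:89294620-89294869 on that build, the downstream start, which opens the p16Ink4a transcript, has chr4:89282193-89282442, and Cdkn2b has chr4:89311033-89311282. These positions cannot be set against the mm9 positions of the peaks.
Cdkn2a upstream start: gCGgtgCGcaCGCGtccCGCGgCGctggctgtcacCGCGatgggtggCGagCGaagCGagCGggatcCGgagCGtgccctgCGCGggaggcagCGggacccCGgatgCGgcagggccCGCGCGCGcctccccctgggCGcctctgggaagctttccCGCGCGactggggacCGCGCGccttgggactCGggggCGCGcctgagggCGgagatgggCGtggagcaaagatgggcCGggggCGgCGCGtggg
Cdkn2a downstream start: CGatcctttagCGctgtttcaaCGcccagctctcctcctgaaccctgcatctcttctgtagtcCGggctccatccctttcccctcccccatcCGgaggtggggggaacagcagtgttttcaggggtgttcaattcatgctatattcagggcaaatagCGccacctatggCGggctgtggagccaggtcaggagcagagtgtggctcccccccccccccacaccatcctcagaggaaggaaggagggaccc
Cdkn2b: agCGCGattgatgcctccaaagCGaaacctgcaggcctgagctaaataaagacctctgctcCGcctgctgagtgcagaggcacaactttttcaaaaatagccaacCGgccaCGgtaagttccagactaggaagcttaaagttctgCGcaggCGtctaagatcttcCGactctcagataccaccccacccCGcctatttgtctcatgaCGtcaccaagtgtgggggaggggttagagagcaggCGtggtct

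The promoters differed in base composition. The upstream start of Cdkn2a had 40 CpG in 250 bases, a number reached by 1.31% of 32851 promoters of the same length, and a GC content of 78.4% against a median of 52.4%. The downstream start of Cdkn2a had 7 CpG and Cdkn2b had 12, where the median promoter had 6. The letters GGGCGG of a GC box, searched on both strands, occurred 2 times before the upstream start of Cdkn2a. This number was reached by 16.7% of all promoters, and 32.7% had at least 1. The letters TGACGTCA, the palindrome bound by CREB and related factors, occurred 1 time before Cdkn2b and in 1.55% of all promoters. Matches of this kind describe the letters and not a bound site.

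No library had a peak in the stretch that holds both genes. The stretch without a peak in any of the 4 lists ran from 88881232 to 89060109, a length of 178.9 kb. It began 18.8 kb before the approximate interval of the genes and ended 60.1 kb after it. In the single lists the stretch was 206.1 kb in G128 replicate 1, 178.9 kb in G128 replicate 2, 206.1 kb in G2 replicate 1 and 178.9 kb in G2 replicate 2. The groups overlapped completely, with one longer and one shorter value in each and means of 192.5 ± 19.3 kb in both (SD, n = 2 each). The lengths differed by a single weak region, which both replicates 2 had and both replicates 1 lacked. Peak lists show no read depth between peaks, so DNA that is absent from the cells and DNA that is present but closed cannot be told apart here.

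**Figure D1:**
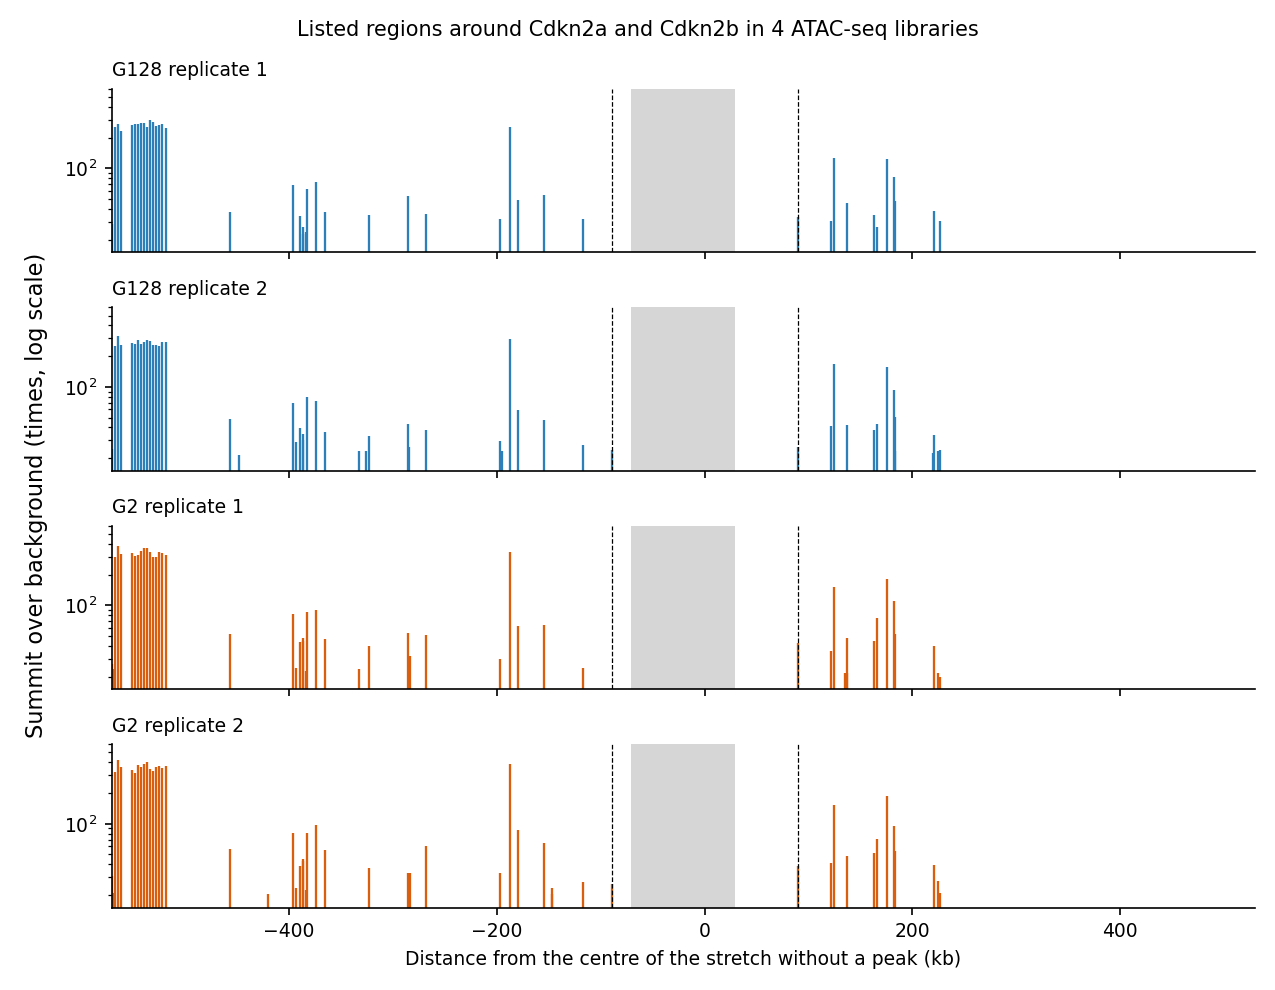
Summit height over the library's background mean (vertical log axis, times) of each listed region, against its distance in kb from the centre of the 178.9 kb stretch, in 1 panel per library. Dashed lines mark the ends of the stretch and grey the approximate interval of Cdkn2a and Cdkn2b; all 4 panels are empty between the dashed lines, and empty again from 89197211 to the end of the window.

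The stretch was long for chromosome 4 but far from its longest gap. Of the 2981 gaps between neighbouring peaks on chromosome 4, 120 were longer, so that it ranked 121 and 4.06% of gaps were at least as long. The median gap was 10.5 kb, the 90th percentile 78.5 kb, the 95th percentile 152.4 kb and the 99th percentile 857.2 kb. In the single lists it ranked 129 of 2128 gaps in G128 replicate 1, 133 of 2475 in G128 replicate 2, 118 of 2788 in G2 replicate 1 and 124 of 2711 in G2 replicate 2. These ranks were all within the longest 6.06% of their list. Over the autosomes and X, 4.81% of 45873 gaps were at least as long. The 5 longest gaps of chromosome 4 measured 4.78, 3.36, 3.23, 2.81 and 2.78 Mb, the first of them at 35308140 to 40089543. The gaps next in rank to the stretch were of 181.5 and 179.4 kb above it and of 177.1 and 177.0 kb below it. Ranks are given without a test, because gaps are not replicates and the locus was chosen with its gap known. The stretch covered the whole approximate interval of the genes, 100001 bp, which alone exceeds the 90th percentile. A high rank thus followed once that interval held no peak. Long gaps are also more likely than short ones to hold a given locus.

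**Figure D2:**
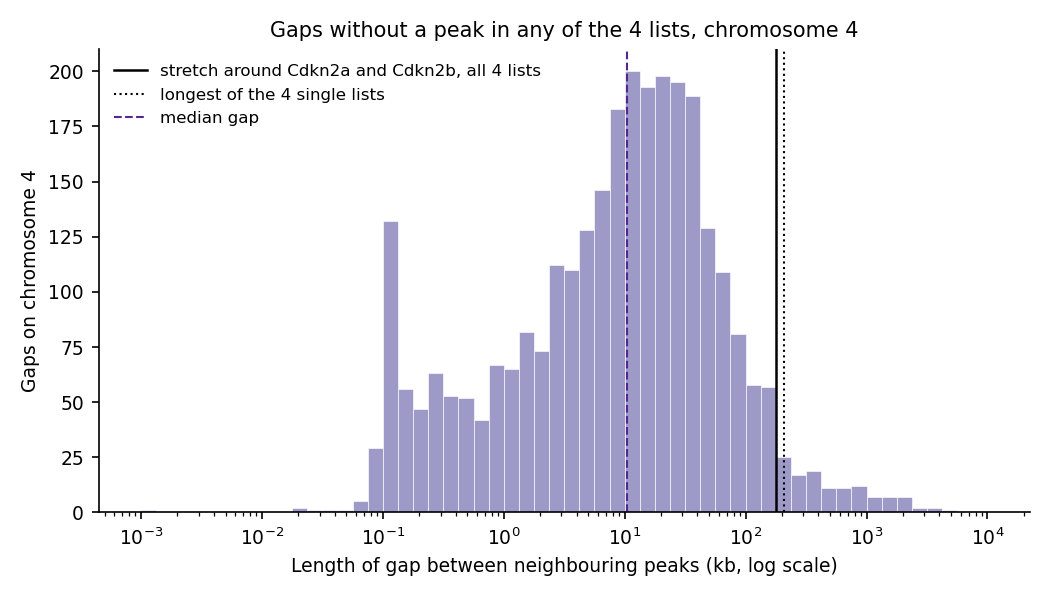
Number of gaps on chromosome 4 (vertical axis) by their length in kb (horizontal log axis), for gaps without a peak in any of the 4 lists. The solid line at 178.9 kb is the stretch around Cdkn2a and Cdkn2b, the dotted line at 206.1 kb is its longest value in a single list, and the dashed line is the median gap of 10.5 kb.

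Gaps at least this long usually had few regions within 200 kb on either side, and the stretch around the genes had more. The 200 kb before it held 13 regions and the 200 kb after it 16, where the 121 gaps at least as long had medians of 3 and 3. Only 3 of these 121 gaps, the stretch included, had at least 13 regions before and 16 after. The other two, at 41813060 to 42962326 and at 127049323 to 128286897, were 1149 and 1238 kb long. With 100 kb on each side the counts were 7 and 12, and no other of the 121 gaps had as many on both sides in this order. With 500 kb they were 46 and 16, and 2 gaps, the stretch included, had as many. The 46 include 15 regions of a regularly spaced series described below. Taking only the poorer side of each gap, 3 of the 121 gaps had at least 7 regions within 100 kb, 3 at least 13 within 200 kb and 17 at least 16 within 500 kb, each time with the stretch included. The 121 gaps ran up to 4781 kb, and gaps close to the stretch in length were not compared separately. The 16 regions after the stretch lay within 137.1 kb and were followed by a gap of 1.84 Mb. The measure of flanking regions was picked with these values known and is a description.

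**Figure D3:**
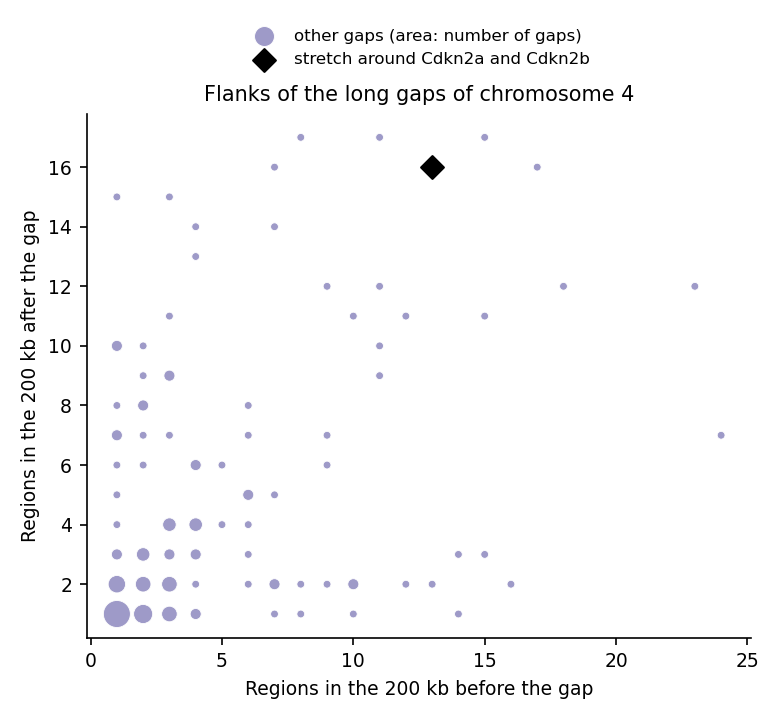
Regions in the 200 kb before (horizontal axis) and after (vertical axis) each of the 121 gaps of chromosome 4 that are at least 178.9 kb long. The area of a circle gives the number of gaps at that point, and the diamond is the stretch around Cdkn2a and Cdkn2b, with 13 regions before and 16 after it.

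The window as a whole was rich in peaks. When chromosome 4 was divided into 138 windows of the same length, the median window had 13.5 regions and the richest 95. The window of the genes had 61, and 11 windows had more. It had 43 regions with a peak in all 4 libraries, called shared here, against a median of 7, and 5 windows had more. Before the stretch lay 45 of its regions and after it 16. Of the 43 shared regions, 15 belonged to a regularly spaced series described below, and 28 lay outside it. Ranks of the window without the series were not computed.

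The regions beside the stretch were weak. Heights are given as the summit over the background, which is the number of overlapping sequenced intervals at the top of a peak, recovered from its deposited p-value and divided by the mean background of its library. The last region before the stretch, at 88881043 to 88881231, was 189 bp wide and stood at 24.1 times on G128 and 25.6 times on G2 in replicate 2. It was not listed in either replicate 1, where the weakest peaks of the whole list stood at 18.97 times on G128 and 18.2 times on G2. The background mean was 1.05 and 1.099 in the replicates 1 and 1.41 and 1.37 in the replicates 2, and its part in this difference was not tested. The last shared region before the stretch, at 88853752 to 88854007, stood at 32.2 and 26.9 times on G128 and at 24.6 and 27.0 times on G2, with replicate 1 before replicate 2 here and below. These values overlapped between the groups, but relative to the median shared region of each library they were 0.642 and 0.463 on G128 and 0.365 and 0.394 on G2, both lower on G2. Before it lay 88823889 to 88824090, listed only in G2 replicate 2 at 20.5 times.

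The first region after the stretch, at 89060110 to 89060575, was shared and stood at 33.2 and 25.5 times the background on G128 and at 42.8 and 38.7 times on G2. Both G2 libraries were higher there than both G128 libraries, but relative to the median shared region of each library the values overlapped, with 0.660 and 0.439 on G128 and 0.635 and 0.564 on G2. The next region, at 89092638 to 89092960, reached 30.4 and 41.1 times on G128 and 35.5 and 40.9 times on G2, which overlap. On the relative scale these were 0.604 and 0.707 on G128 and 0.527 and 0.596 on G2, both lower on G2. The first strong region after the genes was 89094403 to 89095415, 1013 bp wide. It stood at 125.2 and 168.6 times on G128 and at 152.8 and 153.4 times on G2, where the median shared region of the genome stood at 50.3, 58.1, 67.3 and 68.7 times. Relative to these medians it stood at 2.49 and 2.90 on G128 and at 2.27 and 2.23 on G2, both lower on G2. A further strong region lay at 89145273 to 89146122, with 124.2 and 155.9 times on G128 and 182.8 and 187.0 times on G2; it was singled out after its values were seen.

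All 16 regions after the stretch lay within 137.1 kb, and they ended at 89197210. From there no library had a peak until 91041302, a gap of 1.84 Mb that ranked 11 on chromosome 4. The peaks after the genes thus formed an island between 2 long gaps. Of its 16 regions, 11 were shared, with a median mean summit of 45.7 times the background against 60.9 times over all shared regions of the genome. The last shared region of the island, at 89197097 to 89197210, was the weakest of them with 30.4 and 24.1 times on G128 and 20.01 and 21.2 times on G2.

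Most of the highest summits of the window lay far before the genes, in a regularly spaced series of regions. It comprised 15 shared regions from 88402885 to 88452520, each 1217 to 1326 bp wide. Their summits followed each other at 2901 to 2970 bp, with a median of 2928 bp over 13 steps, and 1 wider step of 10267 bp. Summits ranged from 234.3 to 295.0 times the background with a median of 271.3 in G128 replicate 1, and from 248.7 to 317.4 with a median of 267.8 in G128 replicate 2. They ranged from 296.5 to 383.9 with a median of 329.3 in G2 replicate 1, and from 314.2 to 419.4 with a median of 358.0 in G2 replicate 2. The regions of the series were alike in height, with a coefficient of variation of 5.52 to 8.17% within a library. The median of the series stood above 95.4 to 97.4% of the shared regions of the genome. The series was singled out after its spacing had been seen.

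Where regions are near-identical copies, the aligner decides which copy a read is counted for. Whether these regions are copies was not tested, and the sources used here do not give the treatment of reads with several matches. The heights of single members of the series are thus uncertain. How many copies of this DNA the cells carry was not examined either, so the height of the whole series cannot be read as accessibility alone. On GRCm38.p6 the order of genes has a run of 15 protein-coding genes between Klhl9 and Ifna7, Ifnz, an interferon zeta gene, among them. Whether the series lies over these genes was not examined, since it would need an annotation of mm9.

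Outside the series 1 region reached the same height. It lay at 88782714 to 88784207, 97.0 kb before the stretch, was 1494 bp wide and stood at 253.2 and 291.2 times the background on G128 and 332.9 and 385.0 times on G2. The 5 highest shared regions of the window by mean summit were this one and 4 of the series, at 88405894, 88433746, 88430783 and 88436654, with means of 314.3 to 348.9 times. Apart from the series, the 17 shared regions before the stretch had a median mean summit of 46.0 times, close to the 45.7 times after it, and 5 and 3 of them, respectively, lay above the median of all shared regions.

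The number of peaks in the window was similar on G128 and G2. There were 49 and 55 peaks on G128 and 54 and 52 on G2, and the values overlapped. The means were 52 ± 4.24 and 53 ± 1.41 (SD, n = 2 each), a ratio of 1.02, with p = 1 in a two-sided exact permutation test. The sign of this difference was not stable. It was -2 without G128 replicate 1 and -4.5 when each list was reduced to its strongest peaks by signal in equal number. With only the peaks whose p was below the median of their list it was 6. Over the whole lists the ratio of peaks was 1.195, so that the window held 0.151 and 0.146% of the peaks on G128 and 0.127 and 0.125% on G2. Bases covered in the window were 29.4 and 33.6 kb on G128 and 32.7 and 35.6 kb on G2, a ratio of 1.08 with p = 0.667 in the same exact test. The smallest p that 2 against 2 libraries allow is 0.333.

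The regions of the window were mostly found in every library. Of the 61 regions 43 (70.5%) were shared, where 60.5% of all regions were. The 43 include all 15 regions of the regularly spaced series, which raises this share, and 28 shared regions lay outside the series. Both G2 libraries and neither G128 library had 2 regions (3.28%), where 8.32% of all regions showed this pattern, and both G128 libraries and neither G2 library had 0, where 0.37% did. The G2-only regions were 88400983 to 88401154, with 23.7 and 21.2 times the background, and 88686878 to 88687219, with 31.8 and 32.9 times. With 50% reciprocal overlap in place of 1 shared bp there were 3 regions of each kind. Without G128 replicate 1 there were 3 G2-only and 6 G128-only regions. In that setting G128-only means listed in G128 replicate 2 alone, a pattern that 6 regions also had with all 4 libraries. No test of presence was made, since 2 against 2 libraries cannot pass a threshold of 0.05.

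Regions in a single library numbered 11 (18.0%, against 15.5% of all regions), with summits of 20.5 to 25.5 times the background. Of these, 6 were in G128 replicate 2 (9.84% of the window's regions, against 2.27% of all). There were 3 in G2 replicate 2 (4.92%, against 6.46%), 2 in G2 replicate 1 (3.28%, against 6.14%) and 0 in G128 replicate 1 (against 0.621%). Within 200 kb of the genes lay 7 of them. Those in G128 replicate 2 were at 88775345, 89154218 and 89190422, those in G2 replicate 2 at 88823600 and 88823889, and those in G2 replicate 1 at 89106098 and 89107632, each given by its first base. None of them lay in the stretch around the genes.

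Summits of shared regions were compared between the groups after each library had been divided by its median over all shared regions. Before this scaling the median summit of the window was 62.6 and 68.7 times the background on G128 and 82.8 and 81.8 times on G2. The means were 65.7 ± 4.33 and 82.3 ± 0.670 (SD, n = 2 each), a ratio of 1.25, and the ratio over all shared regions was also 1.25. The exact permutation test gave p = 0.333, the smallest it can give. After scaling, the 43 shared regions had a median difference of -0.01 on the log2 scale, G2 minus G128, where all 27768 shared regions had 0.01. The differences ran from -0.72 to 0.78, with 20 above 0 and 23 below. In 8 regions the 2 values of G2 exceeded those of G128, a pattern of 23.8% of all shared regions, and in 8 they were smaller, a pattern of 21.9%.

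**Figure D4:**
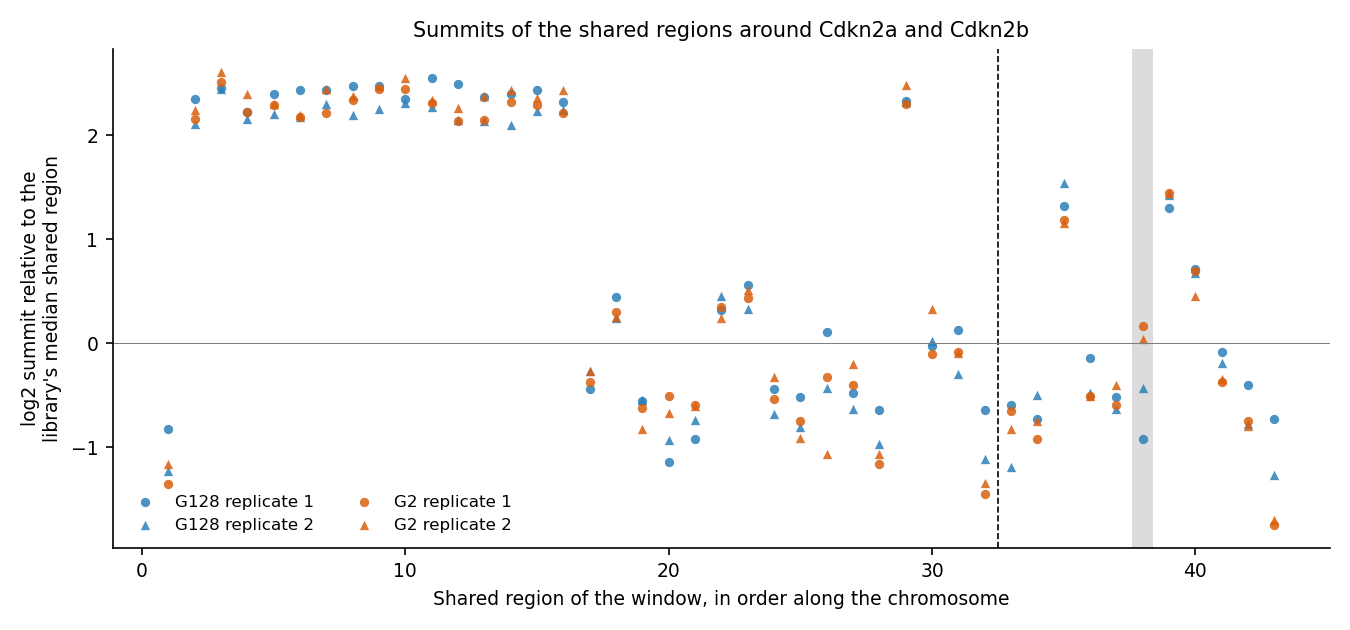
Summit of each of the 43 shared regions of the window relative to the library's median over all shared regions (vertical axis, log2), in order along the chromosome (horizontal axis), with G128 in blue, G2 in orange, circles for replicate 1 and triangles for replicate 2. The dashed line is the stretch around the genes and the grey band the region that passed the test; the 15 regions of the series are the run above 2 at the left.

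One shared region passed the test, on the island after the genes. The region 89136472 to 89137013, 542 bp wide and 76.4 kb after the stretch, stood at 26.6 and 43.2 times the background on G128 and at 75.5 and 70.9 times on G2. The groups did not overlap, also when each summit was taken relative to the median shared region of its library, which gave 0.528 and 0.744 on G128 and 1.12 and 1.03 on G2. The difference was 0.78 ± 0.19 on the log2 scale (SE), a fold of 1.72, with an adjusted p of 0.0218 in limma over 27768 regions. It was 1 of 43 shared regions called higher on G2, where 0.601% of all shared regions were, and 0 were called lower, where 0.864% were. In either direction 1.47% of all shared regions were called. At an unadjusted p under 0.05, 2 regions of the window were higher (4.65%, against 7.39% of all shared regions) and 4 lower (9.30%, against 7.61%). The call was lost, at an adjusted p of 0.117, when limma's spread was not allowed to vary with height, a setting that called 0 of the 27768 regions. That the spread may vary with height was not fixed beforehand, so the call rests on an unplanned choice. It was also lost with quantile normalization (adjusted p of 0.0716 in limma) and with the deposited signal (0.0732). With a library left out, the remaining one of its group is assumed to vary like the pair of the other group. In such fits the call was lost without G128 replicate 1 (difference 0.53, adjusted p 0.128), without G2 replicate 1 (0.72, 0.232) and without G2 replicate 2 (0.84, 0.123), and kept without G128 replicate 2 (1.03, 0.000248).

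The other shared regions described above did not pass the test, and regions not listed in all 4 libraries were not tested. The last region of the island, 89197097 to 89197210, which was singled out after its values were seen, differed by -0.72 ± 0.23 (log2, SE) with an adjusted p of 0.0935 in limma. The shared region next before the stretch, 88853752 to 88854007, differed by -0.52 ± 0.22 with an adjusted p of 0.232. The region after the stretch, 89060110 to 89060575, differed by 0.15 ± 0.21 with an adjusted p of 0.779, and the strong region 89094403 to 89095415 by -0.26 ± 0.12 with 0.315. The 15 regions of the series had differences of -0.12 to 0.17 with a median of 0.01, and the smallest adjusted p among them was 0.442. The region 88782714 to 88784207 differed by 0.07 ± 0.10 with an adjusted p of 0.797.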

How the data were processed

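ATAC-seq libraries of NIH3T3 cells on G128 and on G2, 2 each, were grouped and numbered by their sample titles. Per the submitters' processing notes, the build was mm9, and the tools named include Genrich 0.5, a peak caller, Bowtie2 2.2.5, an aligner, and SAMtools 1.7. Their settings, and the treatment of duplicates and of reads with several matches, are not given in the sources used here. The lists deposited by the authors, 1 per library, give each peak its summit position, a signal, a score, and p and q on a −log10 scale. The score and the q-value were not used. The signal ranked peaks within a list. Summed per region and divided by the background mean, it also replaced the summit in an alternative limma fit.

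The lists held 32540, 37695, 42358 and 41585 peaks. Their depth is known only as the background mean of 1.05, 1.41, 1.10 and 1.37 overlapping intervals per bp, fitted to the lowest 100 distinct deposited −log10 p-values as a log-normal tail over whole numbers. All recovered summits lay within 0.00179 of a whole number. Peaks sharing at least 1 bp were merged. A gap is the stretch between neighbouring peaks of a chromosome, and that of the genes was the gap with the largest overlap with their interval. Coordinates start at 1.

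limma 3.58.1 in R 4.3.3 was fitted to log2 summits over the background, centred on each library's median, over all 27768 shared regions, with a prior spread that follows the mean, and with Benjamini-Hochberg adjustment called at 0.05. The spread that follows the mean was not fixed beforehand, and it gave the same counts of called regions as earlier results of these data. Values per library were compared by two-sided exact permutation tests over 6 assignments. Scripts ran in Python 3.11.15 and were tested on simulated data. Alternatives concerned the peaks used, the overlap, the scaling, the replicate block and the omission of single libraries.

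Named were the 3 regions on each side of the stretch, the 5 highest, those of one group, those past the threshold and those of a single library within 200 kb of the genes, beside the 5 longest gaps and the neighbours in rank. The window, members and rules were chosen with earlier results of these data known. RefSeq tables of GRCm38.p6 gave the gene order and the upstream sequences of both members. Cell-cycle genes elsewhere in the genome were not analysed, since that needs an annotation of mm9.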

Additional observations from a re-analysis of the deposited data

How the results depend on the processing

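The stretch around Cdkn2a and Cdkn2b measured 278.4 kb when only peaks with a p below the median of their list were used, and 6.77% of gaps were at least as long. It measured 206.1 kb with equal numbers of the strongest peaks (5%), and 206.1 kb with regions of all 4 libraries (7.02%). In regions of at least 2 libraries the share was 4.92%. Leaving out each library gave 178.878 to 178.905 kb and shares of 4.003 to 4.41%. When peaks are removed, the stretch can by construction only keep its length or grow.

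The difference in peaks of the window, 1 more on G2, was -2 without G128 replicate 1 and ranged from -2 to 4 over the libraries left out. It was -4.5 with equal numbers of peaks, taken by signal, and 6 with the stronger peaks of each list by p. With the replicate block, pairing libraries of the same number, it was 1, from 5 and -3 in the pairs. The labels do not say that the number marks a shared batch. Scaled summits of same-numbered libraries did not deviate together over shared regions (r = 0.0028), while their background means were alike, at 1.05 and 1.099 in replicates 1 and 1.41 and 1.37 in replicates 2. With 50% reciprocal overlap there were 3 G128-only and 3 G2-only regions, with the stronger peaks of each list by p 4 G2-only regions, and with equal numbers of peaks 1 region of each kind. Leaving out each library gave 3 to 5 G2-only regions, the most without G2 replicate 1, and 0 to 6 G128-only regions, the most without G128 replicate 1. In these settings the remaining library stands alone for its group, so that regions of a single library count as regions of the group.

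Shared regions of the window called higher on G2 numbered 10 without median scaling (23.3%, against 26.6% of all shared regions), which shifts the median of all shared regions to 0.34 (log2) and that of the window to 0.32. They numbered 0 with quantile normalization (median -0.068), where 0.155% of all shared regions were called higher. With the deposited signal they numbered 0 (median -0.30, all regions -0.10), where 0.241% of all were. Without the trend of the spread they numbered 0, as did those of all shared regions. This setting was added after the data were seen, and the trend of the main fit was not fixed beforehand either. At such low shares a count of 0 among 43 regions says little. Leaving out single libraries gave medians of the window of -0.108 to 0.0712. The replicate block called 1 higher and 1 lower, where it called 230 higher and 382 lower of all 27768. Without the series, also added later, the median was -0.079. The cause of these changes was not tested. The region at 89136472 kept its direction under all 10 alternatives, from 0.53 to 1.59, and its call under 4 of them, at adjusted p from 0.000192 to 0.232. Summits under about 18 times the background are not listed, which limits every statement on absent peaks.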
